A study of Homo sapiens with 16 samples.

Results

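The effect of lowering RFX7 in unstressed U2OS cells is described here across 19511 genes of the 23396 found in any of the study's tables. The cells were U2OS, an established human osteosarcoma line, and all groups received a siRNA and either a drug or its solvent. The members were taken by their labels as the 4 siRFX7_DMSO libraries and the 4 siControl_DMSO libraries, 8 of 16 in all, both kept for 24 h in DMSO, the solvent. The other 8 libraries, siControl_Nutlin and siRFX7_Nutlin, received 10 µM Nutlin-3a for the same time, a compound that blocks MDM2 and so stabilises p53, and enter only where the effect of siRFX7 with and without it is compared. The study's title places the question in the RFX7-regulated transcriptome of this line. The sequence and number of siRNAs in each reagent were not given in the sources used here, and nothing says whether libraries came from separate cultures, so p-values measure only the spread between these samples, which may be technical. Each value rests on a comparison of 4 libraries with 4, given without its single libraries, so group levels and standard errors (SE) stand in for values by sample, and whether groups overlap cannot be said.

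RFX7 is a transcription factor of the regulatory factor X family, whose members share a winged-helix domain that binds X-box elements in promoters. RFX5 with RFXANK and RFXAP drives class II antigen presentation genes, RFX2 and RFX3 drive genes of the cilium, and RFX7 is known as a factor that acts downstream of p53 on growth-restraining genes. A siRNA silences its target by full pairing, but it can also lower other transcripts whose 3′ UTR pairs with its seed, a short stretch near its 5′ end, much as a miRNA does. A knockdown with such a reagent can hold both effects of the factor and effects of the seed.

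RFX7 itself (ENSG00000181827, chromosome 15, 56087280 to 56243266, minus strand, GENCODE 29 on GRCh38) checked the labels. Its level, computed for each group from the base mean (the mean normalised count over the libraries of a comparison) and the fold change, went from 2011 to 375 normalised counts. The authors' deposited table gave -2.42 ± 0.07 (SE) on the log2 scale with an adjusted p of 4.22e-298, so 18.6% of the control level remained. The direction of the tables was set partly from this gene, so its sign is no separate check. The marker genes VIM and SPARC, which mark mesenchymal cells, went from 79849 to 76251 and from 27481 to 31907 normalised counts (siControl to siRFX7). Of 10 osteoblast and mesenchymal markers 7 were present, while BGLAP, IBSP and SP7, which mark mature osteoblasts, were not in the table. Levels among the 7 were uneven, with a base mean of 38660.5 for COL1A1 and only 11.8 for COL1A2. Of 6 epithelial markers 4 were present, among them CLDN4 and CDH1 with base means of 499.6 and 150.1. Of 7 blood and endothelial markers 2 were present, VWF (14.7 to 15.1) and CDH5 (4.6 to 9.1 normalised counts), and neither was called. Base means summed to 32846339 normalised counts per library, against 27946376 to 35311111 in the other tables.

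Sites of a pair of short sequences in 3′ UTRs are shown first because many of the changes described here are in genes that carry them. Both were chosen in an earlier scan of these same fold changes, so what follows describes them and is no independent evidence. The heptamer GTATCTA was found in 3′ UTRs of genes that were lower with siRFX7, and the hexamer GACGTA in those of genes that were higher. Whether either matches the seed of a reagent used here was not tested. The sites of the lowest genes are printed as 30 bases of the transcript strand, 5′ to 3′, from GENCODE 29 on GRCh38, with the heptamer in capitals; that of SFRP1, also among the lowest, is not printed.
RFX7 (chr15:56093308-56093337, minus strand): tttataacatgtagcacactGTATCTAaag
SAA1 (chr11:18269920-18269949, plus strand): ggggagagggtacacaatggGTATCTAata
WNT10B site 1 of 2 (chr12:48965975-48966004, minus strand): ttggtccctggaagcttaaaGTATCTAcct
WNT10B site 2 of 2 (chr12:48965686-48965715, minus strand): tgtttggagccataagatctGTATCTAgaa
MRPS35 (chr12:27755485-27755514, plus strand): ttttatgatatatgtgatcaGTATCTAatt
SPOCK1 (chr5:136978580-136978609, minus strand): cacttcctattcctgcatttGTATCTAaga
SNAPC1 (chr14:61795359-61795388, plus strand): tacatgcaaataactattttGTATCTAcag
AGK (chr7:141653779-141653808, plus strand): ctaaaattttatctaagttgGTATCTAaaa
RNF115 site 1 of 3 (chr1:145746697-145746726, minus strand): cttctttaaatttaaagttaGTATCTAcag
RNF115 site 2 of 3 (chr1:145746679-145746708, minus strand): tagtatctacagatggaattGTATCTAcaa
RNF115 site 3 of 3 (chr1:145746353-145746382, minus strand): tgaggcgaggtcaaattcagGTATCTAaga
ATP6V0D1 (chr16:67438240-67438269, minus strand): ctgtggttacagccgctgatGTATCTAaga
MECR (chr1:29193842-29193871, minus strand): tccccagggccagccttaagGTATCTAata

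The sites of the 5 highest genes with the hexamer are given in the same way, with the hexamer in capitals.
NTN1 site 1 of 2 (chr17:9240203-9240232, plus strand): cgggccctggagaaatgacgaGACGTAgct
NTN1 site 2 of 2 (chr17:9243749-9243778, plus strand): taaatgtttagttgtgaccatGACGTAttg
PTPMT1 (chr11:47571699-47571728, plus strand): acagggcttaagcccagacttGACGTAaca
RBPJ (chr4:26431953-26431982, plus strand): tgttctctccccttttcccatGACGTAaat
MET (chr7:116797578-116797607, plus strand): gttactctaactggttttgtcGACGTAaac
TOMM20 (chr1:235111563-235111592, minus strand): ttctttccatttaatctctgaGACGTAaat

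In RFX7 the heptamer begins at base 28 of a 3′ UTR of 6062 bases, and the coding sequence holds 1 more copy, so the targeted transcript carries it too. In 8 of the 10 genes with printed sites at least 1 printed site is the 8mer GTATCTAA, the longest form of the match.

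Lowering RFX7 was accompanied by many small changes. In the authors' deposited table, 7288 of 19511 genes (37.4%) passed an adjusted p of 0.05, the threshold for a call throughout, 3405 lower (17.5%) and 3883 higher (19.9%). Called changes had a median size of 0.30 on the log2 scale, or 1.23-fold, and 9 in 10 called genes did not exceed 0.73. At a size of at least 0.5 there were 894 lower and 744 higher genes, at least 1 left 155 and 144, and at least 2 left 5 and 22. The median over all 19511 genes was 0.00, and the median SE was 0.087. With genes ranked by base mean and cut into 4 equal bins, the share called rose from 8.73% in the lowest bin to 56.8% in the highest, while the called sizes had a median of 0.94 in the first and 0.22 in the last. Weakly expressed genes passed with large changes. Dividing the deposited Wald statistics by their robust SD over genes, a stricter setting, left 955 calls, 384 lower and 571 higher.

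**Figure D1:**
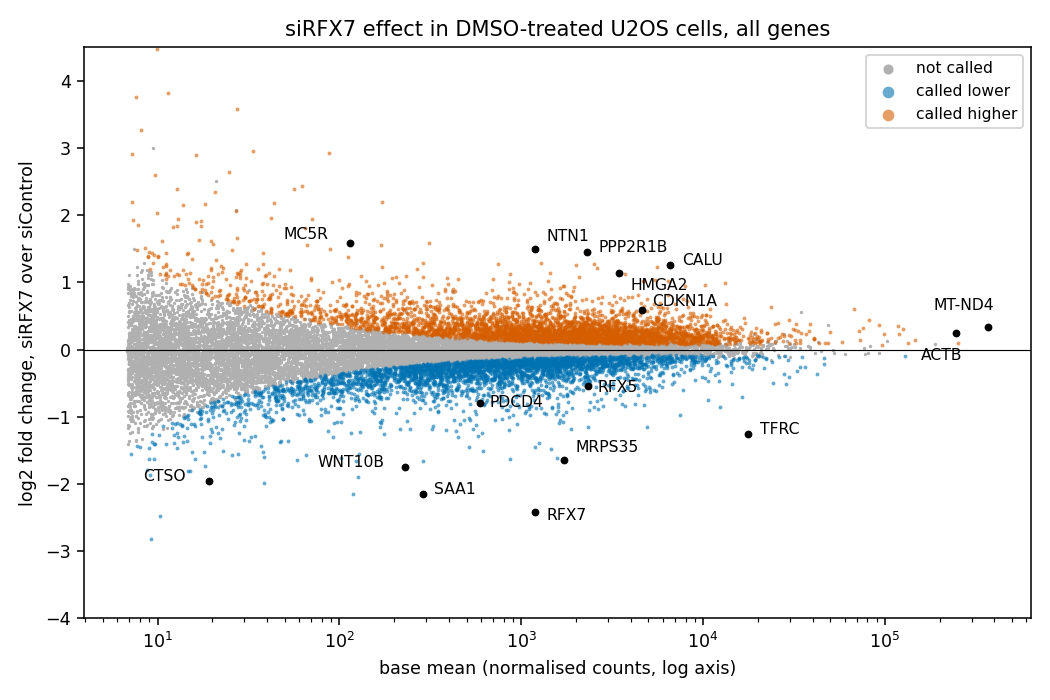
Log2 fold change of siRFX7 over siControl in DMSO (vertical axis) against base mean in normalised counts (horizontal log axis) for 19511 genes, 1 of them beyond the axis. Grey points were not called, blue and orange points were called lower and higher. RFX7 at -2.42 lies below the other genes of its level, and called changes narrow towards 0 as the level rises.

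By class of gene, 43.2% of 13853 protein-coding genes were called, 2698 lower and 3289 higher. Antisense transcripts leaned the other way, with 113 of 955 lower, 36 higher and a median of -0.14, and long intergenic RNAs had 83 of 945 lower, 73 higher and a median of -0.07. The libraries were made with a stranded kit, but the strand setting of the counting was not given in the sources used here, so reads of an antisense gene and of its partner may not be told apart. Processed pseudogenes, which can share reads with the genes they derive from, were called in 32.0% of 2459 cases.

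The genes with the lowest and highest values follow, among called protein-coding genes whose base mean was at least 100. After RFX7 came SAA1, a serum amyloid A acute phase protein, from 468 to 106 normalised counts (-2.15 ± 0.12 SE on the log2 scale in the authors' deposited table); its copy SAA2 is near-identical, so the value is uncertain. WNT10B, a secreted WNT ligand that acts in bone formation, went from 354 to 105 normalised counts (-1.75 ± 0.11 SE in the authors' deposited table), and its 3′ UTR holds 2 heptamers. MRPS35, a protein of the small mitochondrial ribosomal subunit, went from 2609 to 833 (-1.65 ± 0.05 SE in the authors' deposited table). SPOCK1, an extracellular matrix proteoglycan, went from 1304 to 421 (-1.63 ± 0.06 SE in the authors' deposited table). These 4 kept between 22.6% and 32.3% of their control level, not far from the 18.6% of RFX7.

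SNAPC1, a subunit of the complex that starts small nuclear RNA genes, went from 2366 to 774 normalised counts (-1.61 ± 0.06 SE in the authors' deposited table). AGK, a mitochondrial lipid kinase, went from 910.1 to 321 (-1.51 ± 0.07 SE in the authors' deposited table). RNF115, an E3 ubiquitin ligase with 3 heptamers, went from 2147 to 769 (-1.48 ± 0.05 SE in the authors' deposited table). SFRP1, a secreted WNT antagonist, went from 1749 to 638 (-1.45 ± 0.05 SE in the authors' deposited table). ATP6V0D1, a subunit of the vacuolar proton pump, went from 1808 to 687 (-1.40 ± 0.06 SE in the authors' deposited table). MECR, an enzyme of mitochondrial fatty acid synthesis, went from 639.6 to 259 (-1.30 ± 0.08 SE in the authors' deposited table). AK9, an adenylate kinase, went from 153 to 50.2 (-1.61 ± 0.16 SE in the authors' deposited table). Of these 12 lowest genes, RFX7 included, 11 hold the heptamer in their longest annotated 3′ UTR, and AK9 holds it in that of another of its transcripts.

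Among genes without the heptamer in the 3′ UTR of any transcript THEM6 stood lowest, from 449.7 to 204 normalised counts (-1.14 ± 0.10 SE in the authors' deposited table). KLHL22, an adaptor of a cullin ubiquitin ligase, went from 226 to 107 (-1.07 ± 0.13 SE in the authors' deposited table), with 1 heptamer in its coding sequence. CCDC85B went from 2192 to 1061 (-1.05 ± 0.06 SE in the authors' deposited table) and TLCD1, a regulator of membrane lipids, from 687 to 339.9 (-1.01 ± 0.08 SE). The other 6 lay between -0.95 and -0.89 in the authors' deposited table: NAT16, the kinase MATK, the interferon-induced IFIT2, the keratin KRT86, KLHL8 and the neurofilament NEFL. NEFL was the most abundant of these, from 3440.0 to 1857 normalised counts.

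The genes that rose most include a receptor, secreted guidance and adhesion molecules and a phosphatase scaffold. MC5R, a melanocortin receptor, went from 56.8 to 171 normalised counts (1.59 ± 0.15 SE in the authors' deposited table). C1D, a nuclear cofactor of the RNA exosome, went from 155 to 467 (1.59 ± 0.10 SE in the authors' deposited table). NTN1, the secreted guidance molecule netrin-1, went from 624 to 1763 (1.497 ± 0.06 SE in the authors' deposited table) and holds 2 hexamers. PPP2R1B, a scaffold subunit of protein phosphatase 2A, went from 1219.7 to 3354 (1.46 ± 0.05 SE in the authors' deposited table). These 4 reached between 2.75-fold and 3.02-fold of control.

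CLDN1, a tight junction claudin, went from 742 to 1822 normalised counts (1.30 ± 0.05 SE in the authors' deposited table). The mitochondrial phosphatase PTPMT1 went from 167 to 409 (1.29 ± 0.09 SE in the authors' deposited table). VLDLR, a lipoprotein and reelin receptor, went from 436 to 1054 (1.28 ± 0.06 SE in the authors' deposited table). CALU, a calcium-binding protein of the secretory pathway, went from 3861 to 9291 (1.27 ± 0.04 SE in the authors' deposited table), the largest gain in counts among these 12. RBPJ, the DNA-binding partner of NOTCH, went from 1179 to 2811 (1.25 ± 0.05 SE in the authors' deposited table). IGFBPL1 went from 102 to 240.3 (1.23 ± 0.12 SE in the authors' deposited table). MET, the receptor of hepatocyte growth factor, went from 3321 to 7777 (1.23 ± 0.05 SE in the authors' deposited table). TOMM20, a receptor of the mitochondrial import pore, went from 1578 to 3659 (1.21 ± 0.04 SE in the authors' deposited table). Of these 12, NTN1, PTPMT1, RBPJ, MET and TOMM20 hold the hexamer, and the other 7 do not. The next genes without it were HMGA2, a chromatin protein (1.14 ± 0.04 SE), VGLL4, a TEAD cofactor (1.14 ± 0.05 SE), and SLC36A1, a lysosomal amino acid transporter (1.13 ± 0.06 SE), in the authors' deposited table.

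**Figure D2:**
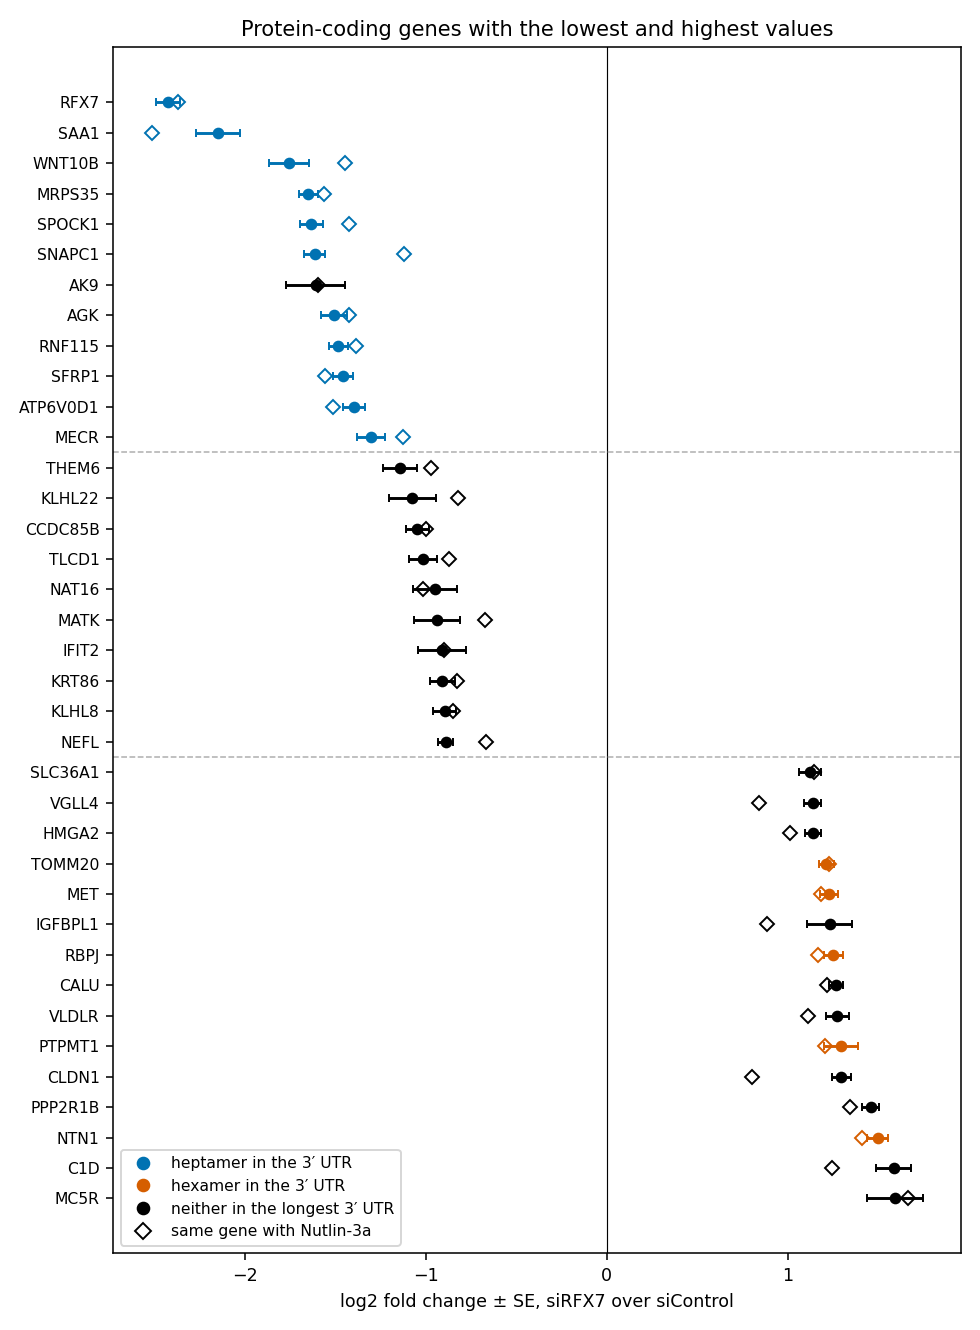
Log2 fold change of siRFX7 over siControl in DMSO (filled points, bars are SE) for the 12 lowest genes, the 10 lowest without the heptamer and the genes with the highest values, with the value of the same gene with Nutlin-3a as an open diamond. Blue marks the heptamer and orange the hexamer in the longest 3′ UTR. The heptamer is in 11 of the 12 genes above the first dashed line, and SNAPC1 and CLDN1 have diamonds nearer to 0 than their points.

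Counted in reads rather than folds, the list of genes differs. The largest loss was that of TFRC, the transferrin receptor, from 24901 to 10468 normalised counts (-1.25 ± 0.04 SE in the authors' deposited table), and its 3′ UTR holds the heptamer. EIF4G2, a translation factor with the heptamer, went from 47354 to 36937 (-0.36 ± 0.04 SE in the authors' deposited table). DHRS2, a dehydrogenase, went from 33652 to 23663 (-0.51 ± 0.03 SE in the authors' deposited table), and the cytoskeletal proteins FLNA and MSN from 133978 to 124865 and 33989 to 25685. The largest gains were those of MT-ND4, ACTB, MT-CO1, MT-ND2 and MT-RNR2, of which 4 are mitochondrially encoded. MT-ND4, a complex I subunit, went from 326901 to 411275 (0.33 ± 0.10 SE in the authors' deposited table), and ACTB, the actin gene, from 226017 to 267906 (0.25 ± 0.04 SE). Of the 13 mitochondrially encoded coding genes, 10 rose and none fell, with a median of 0.24, and of 10 mitochondrial rRNAs and tRNAs 8 rose, with a median of 0.72. In the highest of the 4 bins of base mean, 56.8% of all genes were called in either direction. Only 4 of the 10 rRNAs and tRNAs had a base mean of at least 100, and these 4 rose with a median of 0.61. Under the stricter scaling 0 of 13 and 4 of 10 were called. The coding genes made up 3.98% of the summed level in siControl and 4.62% in siRFX7. This share moved with the groups, and its part in the other results was not tested.

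The carriers of the 2 sequences were counted among 11285 protein-coding genes with an annotated 3′ UTR and a base mean of at least 100, of which 22.4% were lower, 28% were higher and whose median was 0.02. The 911 genes with the heptamer in the longest 3′ UTR had a median of -0.15, with 49.1% lower and 14.9% higher, against 20.0% lower and 29.1% higher in the 10374 genes without it. The 543 genes with the hexamer had a median of 0.18, with 55.8% higher and 9.94% lower. The Nutlin-3a libraries share none with the DMSO ones but carry the same siRNA labels. There the median was -0.11 in the heptamer carriers and 0.17 in the hexamer carriers, which is no independent check of the sequences.

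The values differed by the position and the length of the match. Carriers of the heptamer in the coding sequence but not in the 3′ UTR numbered 357, with a median of -0.04 and 35.9% lower. For the hexamer, 658 such genes had a median of 0.07 and 37.4% higher. Within the 3′ UTR, 286 genes with the 8mer GTATCTAA had a median of -0.21 and 55.2% of them were lower. The 625 genes whose best match was the 7mer GTATCTA had a median of -0.13 and 46.2% were lower. By contrast 850 genes whose best match was TATCTAA had a median of 0.01, and 1455 with TATCTA alone had 0.04, beside 0.03 in the 8069 genes without that 6mer. By number of sites, the median was -0.15 in 809 genes with 1 heptamer, -0.15 in 92 genes with 2 and -0.30 in 10 genes with 3 or more.

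**Figure D3:**
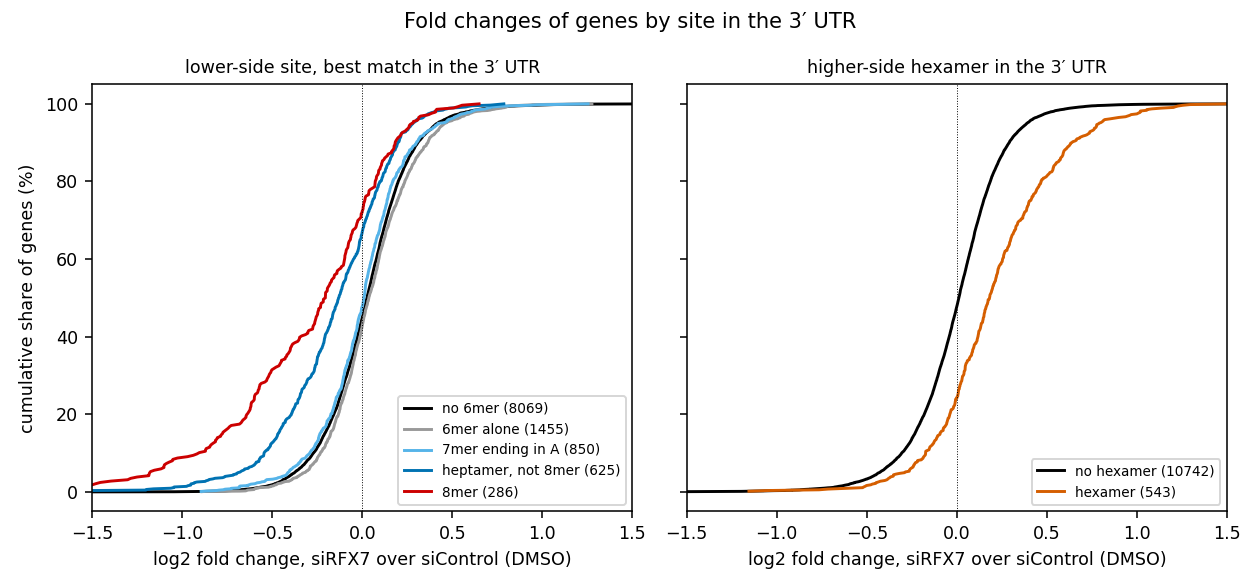
Cumulative share of genes (percent, vertical axis) against log2 fold change of siRFX7 over siControl in DMSO, by the best lower-side match in the 3′ UTR (left) and by presence of the hexamer (right), with numbers of genes in brackets. The curves of the heptamer and of the 8mer lie to the left of the others (medians -0.13 and -0.21), and the hexamer curve lies to the right (median 0.18).

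The share of carriers followed the size of the change. Of 38 genes below -1, 33 (86.8%) held the heptamer, against 41.1% of those from -1 to -0.5, 15.3% from -0.5 to -0.25 and 7.49% from -0.25 to 0. Above 1 it was in 0 of 28 genes, whereas the hexamer was in 14 of 28 (50%), in 26.6% from 0.5 to 1 and in 9.40% from 0.25 to 0.5. These shares describe the scan that chose the sequences and test nothing. Counted over all calls the carriers were few: 447 of 2526 lower genes (17.7%) held the heptamer and 2079 did not, and 303 of 3159 higher genes (9.59%) held the hexamer and 2856 did not.

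The length of the 3′ UTR also moved with the calls, at a median of 1243 bases in lower, 1821 in higher and 1394 in uncalled genes. Within 4 equal bins of length, from short to long, the heptamer carriers had medians of -0.38, -0.31, -0.18 and -0.10, against -0.03, 0.02, 0.05 and 0.07 in the genes without it. The carriers had lower medians in each of the 4 bins, and lowest where the 3′ UTR was short. Among 15901 heptamers with at least 100 carrier genes, GTATCTA had the lowest median, and TATCTAA came next at -0.03. GTATCTA was chosen in a scan of these same fold changes, so its rank describes that choice and tests nothing. TATCTAA overlaps it, both being part of GTATCTAA, so the rank of TATCTAA is no separate evidence. In the 850 genes whose best match was TATCTAA the median was 0.01.

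Promoters were searched for the core of the X-box on both strands, in RefSeq windows on GRCh38.p14 from 250 bases before to 50 after the transcript start, which matched 9374 of 11285 genes by symbol (83.1%). GTTGCC or its reverse complement was in 13.8% of lower, 12.5% of higher and 12.7% of uncalled genes, and in 12.2% of all 35116 windows. The longer GTTGCCA, contained in the same matches, was in 3.39%, 3.88% and 3.38%, and in 4.08% of all windows. The pair GTTNCC then GGNAAC, 0 to 3 bases apart, was in 0.81%, 0.69% and 0.86%, and in 0.74% of all windows. The windows of RFX7, RFX5, PDCD4, PIK3IP1, MXD4, PNRC1, SESN3 and DDIT4 held no GTTGCC and no pair, and that of YPEL2 held GTTGCC once. Single half-sites with other bases and sequence outside these windows were not searched, so X-boxes of those kinds would be missed.

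Because the share called rises with level, the gene lists are set beside the 11285 coding genes above, of which 50.4% were called, 22.4% lower and 28% higher, rather than beside all genes. Under the stricter scaling of the statistics, chosen for the lists after seeing the data, most called members lost their call. The counts that it left are given for many of the lists.

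A list of 4 candidate RFX7 targets was taken from what is known of the published work, possibly from these same libraries, and so is not independent of them; 2 of the 4 fell, and under the stricter scaling PNRC1 lost its call (adjusted p 0.386). PDCD4, a translation inhibitor that acts as a tumour suppressor, went from 752 to 433 normalised counts (-0.80 ± 0.07 SE, adjusted p 3.8e-30, in the authors' deposited table). PNRC1, a nuclear receptor coactivator, went from 334 to 246 (-0.45 ± 0.09 SE, adjusted p 1.14e-05, in the authors' deposited table). PIK3IP1, an inhibitor of PI3K, went from 73.6 to 58.0 (-0.34 ± 0.19 SE, adjusted p 0.149, in the authors' deposited table) and MXD4, a MAX partner that opposes MYC, from 356 to 316 (-0.17 ± 0.09 SE, adjusted p 0.14). None of the 4 holds the heptamer or the hexamer. The authors' deposited table for Nutlin-3a gave -1.40, -1.74, -2.50 and -1.61 for them in the same order, and all 4 were called.

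Of the other RFX factors and partners, 6 of 9 were in the table, 1 lower and 2 higher. RFX5 fell from 2748 to 1888 normalised counts (-0.54 ± 0.04 SE in the authors' deposited table) and holds neither sequence. RFXAP, its partner in the class II complex, rose from 110.3 to 216 (0.97 ± 0.12 SE in the authors' deposited table) and holds the hexamer. RFX1 rose from 664 to 811 (0.29 ± 0.07 SE in the authors' deposited table), while RFX2, RFX3 and RFXANK were not called. Of 10 MHC class II genes, which the RFX5 complex drives, 3 were present, the most abundant of them HLA-DQB1 (54.3 to 47.3 normalised counts), and none was called. Of 34 genes of ciliary transport and the transition zone, 4 fell and 7 rose, with a median of -0.01. TCTN2 rose most, from 302 to 556 (0.88 ± 0.09 SE in the authors' deposited table), and IFT74 fell most, from 1416 to 1032 (-0.46 ± 0.06 SE).

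Of 12 listed interferon-induced genes 11 were present, 7 fell and none rose, with a median of -0.63. Only 6 of the 11 had a base mean of at least 100, and 5 of these fell. Under the stricter scaling of the statistics none of the 11 was called. Those that fell were the antiviral IFIT genes IFIT1, IFIT2 and IFIT3 (-0.74, -0.91 and -0.70 in the authors' deposited table), the ubiquitin-like ISG15 (-0.63), OAS1 (-0.53), IFI6 (-0.44) and IFI44 (-1.36). ISG15 went from 321 to 207 normalised counts, and IFI6, the most abundant member after DDX58, from 420.0 to 309.7. Only IFI44 holds the heptamer, and without it 6 of 10 fell, with a median of -0.58. The median was -0.67 with Nutlin-3a and no difference between treatments was called in this list.

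In the class I antigen presentation list, which interferon also induces, 6 of 14 fell and none rose, with a median of -0.13, and 1 was called under the stricter scaling. They were the immunoproteasome subunits PSMB9 (-0.68 ± 0.07 SE) and PSMB8 (-0.38 ± 0.06 SE) and the peptide transporter TAP1 (-0.36 ± 0.05 SE) in the authors' deposited table, with HLA-F (-0.66), HLA-E (-0.24) and HLA-C (-0.10). The most abundant member, B2M, was at -0.03 in the authors' deposited table and was not called. Reads of HLA genes can be shared between near-identical copies, so those values are uncertain. No member holds either sequence.

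Among 24 p53 targets present of 25 listed, 10 fell and 5 rose, with a median of -0.10, and 4 and 2 under the stricter scaling. RRM2B, a ribonucleotide reductase subunit (-0.74 ± 0.05 SE), DDB2, a damage sensor (-0.32), and CCNG1 (-0.28) fell in the authors' deposited table and hold the heptamer. Those that fell without it were FDXR, XPC, PLK2, TP53I3, TNFRSF10B, BTG2 and PHLDA3, from -0.54 for FDXR to -0.16 for PHLDA3 in the authors' deposited table. CDKN1A, the CDK inhibitor p21, rose from 3691 to 5577 normalised counts (0.60 ± 0.04 SE in the authors' deposited table), and SESN1, SESN2, ZMAT3 and BAX rose by less. MDM2 went from 4232 to 4229.6 (0.00 ± 0.05 SE in the authors' deposited table) and was not called. Without the 3 carriers, 7 of 21 fell, 5 rose and the median was -0.04.

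Of 15 regulators of the G1 phase present, 3 fell and 5 rose (53.3% called), close to the 50.4% of the coding genes. CCNE1, the cyclin that starts S phase, rose from 3189 to 5617 normalised counts (0.82 ± 0.04 SE in the authors' deposited table). The CDK inhibitor CDKN1B rose from 1333 to 1836 (0.46 ± 0.05 SE in the authors' deposited table), beside CDKN1A. CCND2 and CCND3 rose by 0.52 ± 0.15 and 0.15 ± 0.05 (SE) in the authors' deposited table. The SE of CCND2 was thus wide, and with Nutlin-3a it was at 0.02 and not called. CCNG2, a cyclin linked to arrest, fell from 421 to 278 (-0.60 ± 0.09 SE in the authors' deposited table) and holds the heptamer, and CDKN2C fell by 0.26. Of 20 mitotic genes 3 fell and 5 rose (40% called), with a median of 0.03. CCNA2 fell from 7886 to 5544 (-0.51 ± 0.04 SE in the authors' deposited table) and holds the heptamer, while CCNB1 rose from 8192 to 10120.3 (0.30 ± 0.04 SE). Of 24 replication genes 7 fell and 4 rose, from PRIM1 at -0.39 to GINS3, a hexamer carrier, at 0.74 in the authors' deposited table.

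Of 12 genes of the MYC, MAX and MXD network, 2 fell and 5 rose. MYC rose from 10515 to 11899 normalised counts (0.18 ± 0.04 SE in the authors' deposited table), MLXIP from 5178 to 6848 (0.40 ± 0.05 SE), and MYCL fell from 121 to 72.5 (-0.74 ± 0.15 SE); no member was called under the stricter scaling. Of 5 antiproliferative BTG and TOB genes, BTG2 fell (-0.19 ± 0.05 SE) and BTG1 rose (0.41 ± 0.08 SE) in the authors' deposited table.

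None of the 19 brakes on PI3K and mTORC1 fell and 9 rose (47.4% called), with a median of 0.16. Of the 16 with a base mean of at least 100, 56.25% were called. Under the stricter scaling 1 was called, and CASTOR2 and DDIT4 lost their calls there (adjusted p 0.141 and 0.169). Those that rose included CASTOR2 (0.85 ± 0.13 SE) and DDIT4, an mTORC1 inhibitor also called REDD1 (0.50 ± 0.08 SE), in the authors' deposited table. The sestrins SESN2 (0.48) and SESN1 (0.43), the AKT phosphatase PHLPP1 (0.32), TSC1 (0.19), PIK3R1 (0.16) and NPRL3 (0.15) also rose in the authors' deposited table. No member holds either sequence. Of 17 stress response genes 11 rose and 1 fell, with a median of 0.18, and 5 rose under the stricter scaling. CHAC1, a glutathione-degrading target of ATF4, rose from 480.5 to 893 normalised counts (0.89 ± 0.07 SE in the authors' deposited table), and SEL1L, an adaptor of endoplasmic reticulum degradation, from 5778 to 9698 (0.75 ± 0.04 SE). ASNS (0.60), PDIA4 (0.49), HSPA5 (0.18) and ATF4 (0.15) rose by less in the authors' deposited table, and SDF2L1 fell (-0.20). SESN2 is in both of these lists and in that of the p53 targets.

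Of 16 NF-kB genes present 3 fell and 7 rose, with a median of 0.11, and 1 and 0 under the stricter scaling. BIRC3, an inhibitor of apoptosis, fell from 2471 to 1351 normalised counts (-0.87 ± 0.06 SE in the authors' deposited table) and NFKB1 fell by 0.21, both carriers, beside NFKB2 (-0.10), which is none. TNF rose from 73.3 to 121 (0.73 ± 0.15 SE in the authors' deposited table), and IL1A, CXCL8, CCL20, TNFAIP3, CCL2 and NFKBIA rose by 0.23 to 0.50, TNFAIP3 as a hexamer carrier. Of 9 acute phase and complement genes SAA1 and SAA2 fell, and PTX3 rose (0.48 ± 0.09 SE in the authors' deposited table). Of 18 immediate early genes 6 fell and 7 rose, and 2 of them, both higher, were called under the stricter scaling. The AP-1 members FOS (-0.60, a carrier), JUN (-0.22) and JUND (-0.17) fell in the authors' deposited table, while FOSL1 (0.35), FOSB (0.56) and FOSL2 (0.14) rose, with KLF2 (0.71 ± 0.08 SE) and RHOB (0.51 ± 0.04 SE) among the others that rose.

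Of 20 genes of cholesterol synthesis and its control, 9 fell and 1 rose (50% called), with a median of -0.07, and 2 and 1 under the stricter scaling. PMVK, phosphomevalonate kinase, fell from 559.9 to 318 normalised counts (-0.82 ± 0.10 SE in the authors' deposited table), followed by CYP51A1 (-0.56, a heptamer carrier), MVD (-0.42), MVK (-0.34) and IDI1 (-0.31). Of 81 nuclear genes of the respiratory chain and ATP synthase 28 fell and 11 rose (48.1% called), and 5 and 2 under the stricter scaling. Their median was -0.06, which is opposite in direction to the mitochondrially encoded subunits above. ATP5PO, a stalk subunit of ATP synthase, fell most, from 1429 to 789.7 (-0.86 ± 0.08 SE in the authors' deposited table). Of 83 cytosolic ribosomal proteins 22 fell and 19 rose (49.4% called), with a median of -0.03, and many have pseudogenes that share their reads.

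In the list of vacuolar ATPase subunits and cathepsins, 10 of 26 fell and 4 rose (53.8% called), and 2 and 1 under the stricter scaling. Of the 22 members with a base mean of at least 100, 59.1% were called. The lowest 3 were heptamer carriers: ATP6V0D1, ATP6V1A (-0.49 ± 0.05 SE in the authors' deposited table) and CTSO, which went from 30.5 to 7.8 normalised counts. Without carriers 7 of 23 fell and 4 rose, the cathepsins CTSL (-0.26) and CTSZ (-0.20) and the accessory subunit ATP6AP1 (0.38) among them in the authors' deposited table.

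Of 27 WNT pathway genes 6 fell and 9 rose (55.6% called), and of 28 collagens, laminins and integrins 5 fell and 8 rose (46.4% called), shares near the 50.4% of the coding genes. WNT10B and SFRP1, a ligand and an antagonist, fell furthest and are carriers, while the ligand WNT5A rose from 419 to 613 normalised counts (0.55 ± 0.08 SE in the authors' deposited table), with the transcription factors TCF7L2 (0.50) and TCF7L1 (0.49). Of 16 subunits of protein phosphatase 2A 9 rose and 2 fell, with a median of 0.12, and 1 rose under the stricter scaling. PPP2R2B, a hexamer carrier at a low level, fell from 40.0 to 22.5, and both scaffolds were higher, PPP2R1B as above and PPP2R1A at 0.34 ± 0.04 (SE) in the authors' deposited table. The matrix list ran from COL3A1 at -0.58 ± 0.10 to ITGA5, the fibronectin receptor subunit, at 0.54 ± 0.03 (SE) in the authors' deposited table. COL1A1 rose from 33607 to 43714 (0.38 ± 0.04 SE in the authors' deposited table) and SPP1, osteopontin, a carrier, fell from 129.6 to 70.8 (-0.87 ± 0.16 SE). Of 4 epithelial markers present, CDH1 (0.85 ± 0.13 SE), EPCAM (0.54) and CLDN4 (0.40) rose in the authors' deposited table, CDH1 from 107 to 193 and CLDN4 from 430.5 to 569 normalised counts, and none was called under the stricter scaling (CDH1 adjusted p 0.127). Of 13 genes of the small RNA machinery 4 rose and 1 fell (38.5% called), and 1 and 0 under the stricter scaling. TNRC6C (0.66), DICER1 (0.34), AGO1 (0.29) and AGO2 (0.19) rose and PRKRA fell (-0.14) in the authors' deposited table.

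**Figure D4:**
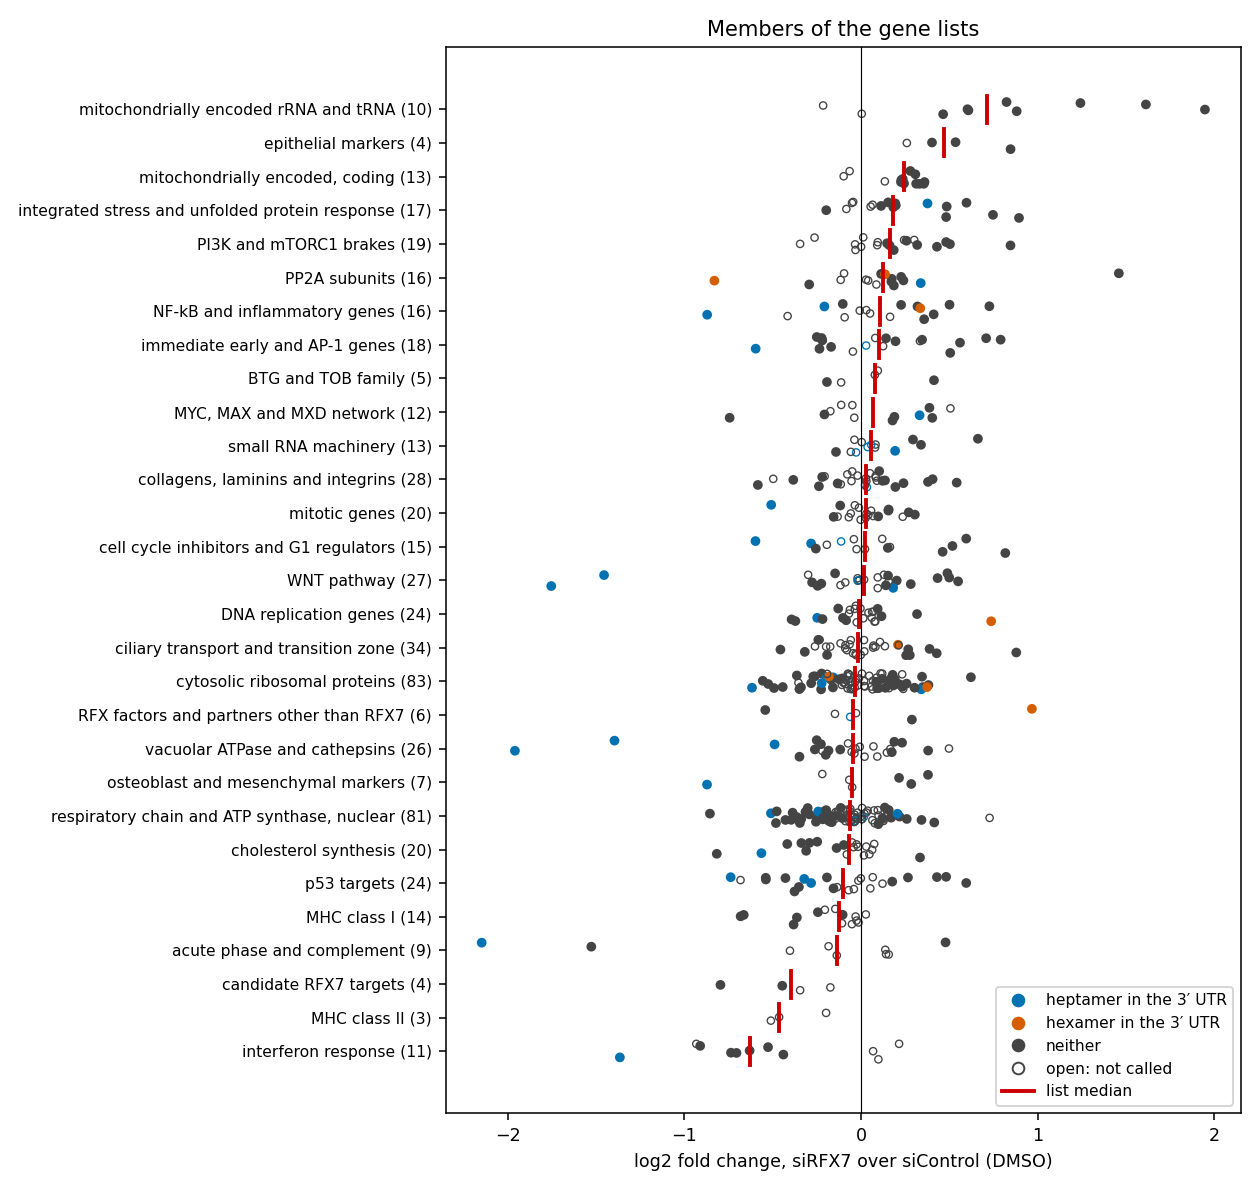
Log2 fold change of siRFX7 over siControl in DMSO for each member of 29 gene lists with 3 or more genes present (number present in brackets), ordered by median (red bar). Filled points were called and open points were not; blue marks the heptamer and orange the hexamer in the longest 3′ UTR. The interferon list has the lowest median (-0.63), and the deepest points of several lists are blue.

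Shares called within a list ranged from 0% for the MHC class II and the blood and endothelial lists to 80% for the mitochondrial rRNAs and tRNAs, and the list medians lay between -0.63 and 0.72.

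The effect of siRFX7 was compared with that in Nutlin-3a, where 6625 of 20335 genes (32.6%) were called in the authors' deposited table. These tables share no library. Of 7280 genes called in DMSO and present in both, 5050 were also called with the same sign in Nutlin-3a. Of the 291 with a size of at least 1 in DMSO, 198 were, a share near that of all called genes. The difference of the effects, Nutlin-3a minus DMSO, was tested per gene by a two-sided normal test with Benjamini-Hochberg adjustment, and 202 of 19346 genes (1.04%) passed, 160 more negative with Nutlin-3a and 42 more positive. At an unadjusted p under 0.05 there were 1317. Of the 202, 72 were not called in DMSO, and of these 57 were lower with Nutlin-3a.

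For 26 genes the effect was called under both treatments with opposite signs, in 24 of them higher in DMSO and lower in Nutlin-3a. With the DMSO statistics divided by their robust SD, 0 of the 26 kept their call in DMSO (DDIT4 adjusted p 0.169, YPEL2 0.779). That SD, 2.49, was taken over all genes and so includes any broad effect of siRFX7. For the difference statistics it was 0.98. The scaling therefore cannot show whether the deposited standard errors are too small, which was not tested. DDIT4 was at 0.50 in DMSO and -0.77 for Nutlin-3a in the authors' deposited table of each treatment, a difference of -1.28 ± 0.10 (SE; adjusted p 3.94e-30). YPEL2 was at 0.25 and -0.92 in the authors' deposited table of each treatment, which differed by -1.17 ± 0.11 (adjusted p 5.94e-25). SESN3, a sestrin, was at 0.24 ± 0.11 (SE) in DMSO, not called, and at -1.38 for Nutlin-3a in the authors' deposited table of each treatment. RFX5 fell under both, at -0.54 and -1.18 in the authors' deposited table of each treatment, a difference of -0.63 ± 0.06 (adjusted p 1.1e-20). The mitotic regulators CDC20, PLK1 and BIRC5 were at -0.01, 0.16 and -0.06 in DMSO and at -0.34, -0.19 and -0.30 for Nutlin-3a in the authors' deposited table of each treatment. In all, 9 of 20 mitotic genes and 8 of 16 NF-kB genes differed between treatments. This compares with 1.04% of all genes, and with 198 of the 13170 genes whose base mean in DMSO was at least 100. The lists were chosen with earlier results of these data known, so these counts describe them and test nothing. Mitotic genes had a median of 0.03 in DMSO and -0.15 with Nutlin-3a, and NF-kB genes 0.11 and -0.25.

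**Figure D5:**
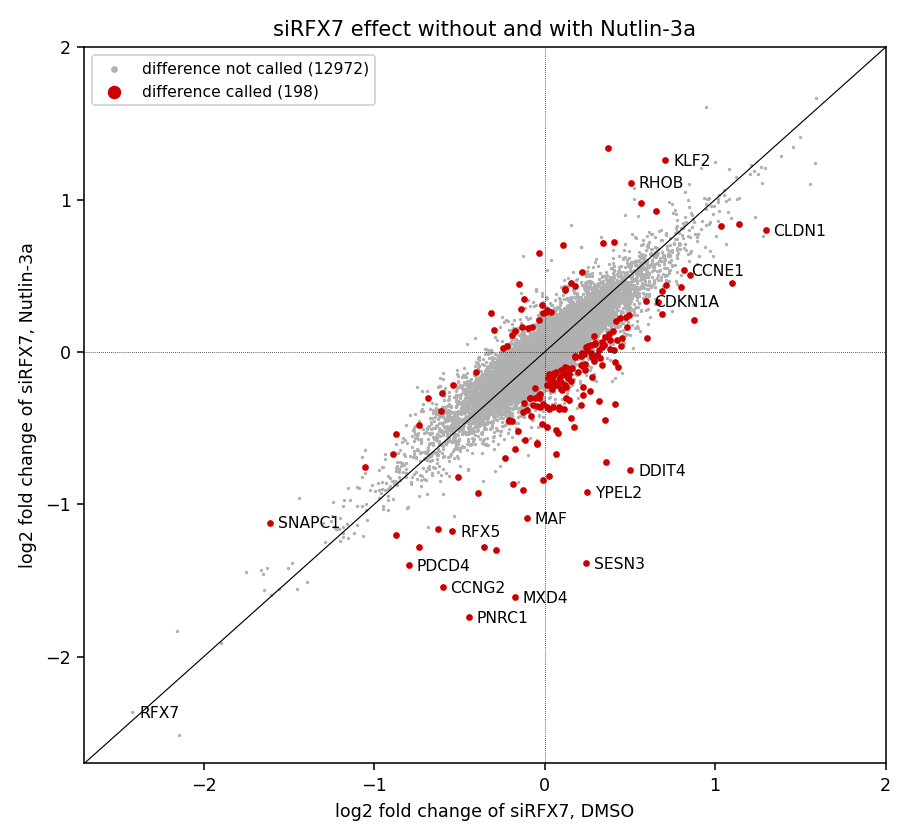
Log2 fold change of siRFX7 over siControl in Nutlin-3a (vertical axis) against that in DMSO (horizontal axis) for 13170 genes whose base mean in DMSO was 100 or more, 1 of them beyond the axes, with the line of equal effects. Red marks 198 genes whose difference was called. Most red points lie below the line, and RFX7 lies near it at -2.42 and -2.37.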

How the data were processed

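RNA was isolated with the RNeasy Plus kit, and poly(A) libraries were made with the TruSeq stranded kit, per the labels' protocols. Reads were processed with bcl2fastq 2.19.1.403, Trimmomatic 0.39, cutadapt 2.10, featureCounts 1.6.5 and DESeq2 1.20.0 on hg38, per the submitters' processing notes; the aligner and annotation were not given in the sources used here. The authors deposited comparisons of 2 groups without single libraries. Their base mean is a deposited signal in normalised counts, and the deposited log2 fold changes, standard errors, Wald statistic (a score), p-values and adjusted p-values are the authors'. Whether fold changes were shrunken is not stated. Direction was set from RFX7, CDKN1A and MDM2. Group levels were computed as the base mean times 2 over 1 plus the fold, and times the fold; levels from a pair of tables differed by an SD of 0.0017 to 0.0019 (log2) over 12789 genes. The difference test used the root of the summed squared standard errors. Identifiers matched GENCODE 29 for 99.9% of genes. Lists had no test. Named genes were the 12 lowest and highest called protein-coding genes, the 10 lowest without heptamer and highest without hexamer, 5 per direction by reads, 6 per direction by difference, and the called extremes of each of 28 lists and of the mitochondrially encoded genes. These members, lists and rules were chosen with earlier results of these data known. Python 3.11.15, pandas 2.3.3 and scipy 1.17.1 were used. Alternatives tried were thresholds, a base mean minimum, coding genes only, centring, scaling of the statistics and removal of carriers.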

Additional observations from a re-analysis of the deposited data

Results flagged for a closer look

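For 30 genes named in the text, the effect of siRFX7 differed between treatments by the test of the difference (adjusted p under 0.05, siRFX7 over siControl in Nutlin-3a minus DMSO, log2 scale). More negative effects with Nutlin-3a were those of PIK3IP1 (-2.16), SESN3 (-1.63), MXD4 (-1.44), PNRC1 (-1.29), DDIT4 (-1.28), YPEL2 (-1.17), MAF (-0.99), CCNG2 (-0.95), RFX5 (-0.63), PDCD4 (-0.60), BTG1 (-0.48) and CDKN1A (-0.26). Cell cycle genes with more negative effects were PLK1 (-0.35), CDC20 (-0.33), CCNB1 (-0.32), CCNA2 (-0.31), CCNE1 (-0.28) and BIRC5 (-0.24). BIRC3 (-0.33), CLDN1 (-0.50) and VGLL4 (-0.30) were also more negative, the last 2 as smaller rises. CDKN1A and CCNE1 were smaller rises too, at 0.60 and 0.82 in DMSO and at 0.33 and 0.54 for Nutlin-3a in the authors' deposited table of each treatment. CCNB1 and BTG1 rose in DMSO and were not called with Nutlin-3a, at -0.02 and -0.06 in the authors' deposited table.

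More positive effects with Nutlin-3a were those of HKDC1 (0.68), RHOB (0.61), ADAMTS1 (0.60), the pseudogenes RPS6P25 (0.59) and WFDC21P (0.58), KLF2 (0.55), SNAPC1 (0.49), RRM2B (0.26) and NEFL (0.22). SNAPC1, RRM2B and NEFL fell under both treatments, and less so with Nutlin-3a. Reads of the pseudogenes can come from related genes, so those values are uncertain.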

How the results depend on the processing

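Of 7288 called genes, a size of at least 0.5 left 1638 (894 lower, 744 higher) and a size of at least 1 left 299 (155 and 144). Dividing the deposited statistics by their robust SD of 2.49 left 955 (384 lower, 571 higher), and 33 of 99 named genes called lost their call: ACTB, BTG1, BTG2, CASTOR2, CCNG2, CDH1, COL3A1, CTSO, DDIT4, EGR3, FLNA, FOS, IFI44, IFIT2, MATK, MLXIP, MT-CO1, MT-ND1, MT-ND2, MT-ND4, MYCL, PNRC1, PPP2R2B, PRIM1, PRKRA, PTX3, RPL7, SDF2L1, SPP1, TNF, WFDC21P, WNT5A and YPEL2. In this setting 0 of the 26 genes with opposite signs under the treatments kept their call in DMSO, an alternative chosen after seeing the data. For the difference between treatments, an adjusted p under 0.01 left 125 genes (103 more negative, 22 more positive). The other settings kept counts within 1.5 times, at 5623 to 7305 for the effect in DMSO and 202 to 218 for the difference, and no named gene that was called changed sign when centred. Centring on the median moved the share of higher calls from 53.3% to 49.5%, so that lower calls (3686) outnumbered higher ones (3619). Leaving out carriers moved the medians of 6 of 29 lists by more than the median SE of their members, and a base mean of at least 100 those of 3 of 28. Of these the medians changed sign without carriers for the MYC network (0.07 to -0.04), the acute phase list (-0.14 to 0.00026) and the osteoblast markers (-0.05 to 0.08), and at the base mean minimum for the acute phase list (0.00026), the immediate early genes (0.10 to -0.01) and the osteoblast markers (0.07). The G1 and WNT medians, at 0.02, changed sign within that SE at the minimum (-0.0013 and -0.0082). Left-out replicates were not run, because the tables hold no single libraries. No paired analysis was possible because the tables carry no replicate numbers. Low levels limit calls: in the lowest of 4 bins of base mean 8.73% of genes passed.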
